A study of Mus musculus with 6 samples.

Results

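Immunoglobulin V segments are the gene pieces that code for most of the variable domain of an antibody chain. Every gene of the count table whose symbol starts with Ighv (heavy chain), Igkv (kappa light chain) or Iglv (lambda light chain) was taken, which gave 140 of 33924 genes: 37 heavy, 100 kappa and 3 lambda segments. They were read in 6 RNA sequencing libraries of mouse bone marrow, 2 of leukemia 1, 2 of leukemia 92 and 2 of pro-B cells from wild-type mice. Per the labels the leukemias are primary Mll-Af4/N-RasG12D acute lymphoblastic leukemias. Marrow of Mll-Af4 mice aged 6 to 8 weeks was depleted of lineage-positive cells and sorted for c-Kit+ Sca1+ cells. These cells received the retrovirus MSCV-cre-IRES-TdTomato and then a vector carrying N-RasG12D, and were injected with wildtype helper marrow into lethally irradiated recipients. The control cells were sorted as B220+CD43+IgM- and carry neither allele, and no age is given for them. Each leukemia number stands for 1 leukemia. The labels do not say that its 2 libraries, or the 2 pro-B libraries, came from separate animals, so p-values measure only the spread between these samples, which may be technical.

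A B cell precursor builds its antibody genes by cutting and joining DNA. The recombinase Rag1/Rag2 joins a D to a J segment at the heavy chain locus, then a V segment to that DJ, and later a V to a J segment at a kappa or lambda locus. After joining, the promoter of the chosen V segment drives the whole chain. V segments that have not been joined can also be transcribed at a low level, as germline (sterile) transcripts. A count table of V segments does not separate joined from germline transcripts. A population of many B cell precursors usually spreads its reads over many V segments, and the descendants of 1 cell share the V segments that it had joined.

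The germline coding sequences of the V exons on which the results turn are given here, from GENCODE on the build GRCm38 at most the last 300 bases of each exon, read 5′ to 3′ on the coding strand, the minus strand of chromosome 12 for the heavy and chromosome 6 for the kappa segments. The first bases code for the end of the leader peptide. Capitals mark the 3 codons that end in the conserved cysteine before the third complementarity-determining region (CDR3). The bases after the capitals, 6 in the heavy and 23 or 25 in the kappa segments, are still germline V sequence. Ighv1-54 and Ighv1-5 led the heavy chain reads of the leukemia libraries, and Ighv1-18 led those of a pro-B library.

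Ighv1-54: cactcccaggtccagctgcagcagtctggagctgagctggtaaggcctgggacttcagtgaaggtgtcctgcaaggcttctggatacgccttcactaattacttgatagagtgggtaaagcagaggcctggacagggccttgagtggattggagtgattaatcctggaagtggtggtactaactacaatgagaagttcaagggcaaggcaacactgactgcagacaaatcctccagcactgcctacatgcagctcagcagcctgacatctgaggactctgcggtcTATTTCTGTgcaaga

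Ighv1-5: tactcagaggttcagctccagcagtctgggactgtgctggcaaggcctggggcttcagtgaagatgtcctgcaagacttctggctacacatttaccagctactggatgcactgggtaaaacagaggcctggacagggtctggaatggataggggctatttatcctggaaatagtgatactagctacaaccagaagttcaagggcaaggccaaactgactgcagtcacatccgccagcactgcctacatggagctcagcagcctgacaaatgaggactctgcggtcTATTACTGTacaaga

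Ighv1-18: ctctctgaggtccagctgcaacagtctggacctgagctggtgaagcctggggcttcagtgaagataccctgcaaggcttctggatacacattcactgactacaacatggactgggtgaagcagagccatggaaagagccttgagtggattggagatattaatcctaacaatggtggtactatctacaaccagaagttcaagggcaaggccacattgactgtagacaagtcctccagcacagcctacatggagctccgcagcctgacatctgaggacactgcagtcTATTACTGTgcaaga

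These 3 segments belong to the family Ighv1. The exons of Ighv1-54 and Ighv1-5 were identical at 83.6% of positions, those of Ighv1-54 and Ighv1-18 at 85.2%, and those of Ighv1-5 and Ighv1-18 at 81.0%. For the kappa chain, Igkv4-90 and Igkv12-89, which are neighbours in the locus, led the reads of leukemia 92, and Igkv6-32 led those of a pro-B library.

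Igkv4-90: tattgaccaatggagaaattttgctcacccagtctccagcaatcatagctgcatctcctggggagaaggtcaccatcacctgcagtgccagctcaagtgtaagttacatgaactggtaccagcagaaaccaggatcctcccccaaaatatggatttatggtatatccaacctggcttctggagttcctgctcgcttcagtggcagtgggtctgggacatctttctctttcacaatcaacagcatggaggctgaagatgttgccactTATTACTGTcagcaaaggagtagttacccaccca

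Igkv12-89: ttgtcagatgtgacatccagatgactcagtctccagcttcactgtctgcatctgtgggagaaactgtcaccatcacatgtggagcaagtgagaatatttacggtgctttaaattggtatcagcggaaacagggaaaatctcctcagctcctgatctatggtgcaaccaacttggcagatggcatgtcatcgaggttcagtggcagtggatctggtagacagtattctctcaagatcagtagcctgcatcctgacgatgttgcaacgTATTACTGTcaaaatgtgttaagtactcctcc

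Igkv6-32: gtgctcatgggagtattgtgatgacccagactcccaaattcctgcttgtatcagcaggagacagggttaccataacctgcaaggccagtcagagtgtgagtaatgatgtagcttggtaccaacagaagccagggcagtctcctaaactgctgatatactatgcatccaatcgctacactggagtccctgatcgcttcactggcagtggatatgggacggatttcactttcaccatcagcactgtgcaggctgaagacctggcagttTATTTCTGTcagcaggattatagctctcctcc

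Igkv4-90 shared 64.0% of aligned positions with Igkv12-89 and 67.2% with Igkv6-32, against 83.8% with Igkv4-91 and 79.0% with Igkv4-92, its neighbours of the same family. Close copies matter here, because a read that fits several segments equally well cannot be placed. Of the 140 segments, 111 shared at least 1 stretch of 50 bases with the transcript of another V segment, and 29 shared none. The shared part was 0% of such stretches for Igkv4-90, Igkv12-89 and Igkv6-32, 1.16% for Ighv1-5, 9.76% for Ighv1-54 and 35.8% for Ighv1-18, so the counts of Ighv1-18 are less certain.

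The table held 37 of the 183 Ighv genes of GENCODE (20.2%), 100 of 160 Igkv genes (62.5%) and all 3 Iglv genes. These totals include pseudogenes, and 3 heavy and 6 kappa members are pseudogenes. Of the genes not marked as pseudogenes, the table held 34 of 113 Ighv and 94 of 100 Igkv. The other Ighv and Igkv genes were not analysed here, so a heavy chain that used a V segment outside these 37 would not be seen. The 37 heavy segments fall into 10 families, 21 of them in Ighv1, and the 100 kappa segments into 19 families, 26 of them in Igkv4. No read fell on 1 heavy and 5 kappa segments in any library.

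Reads assigned to genes summed to 22153444 to 27444759 per library. At that depth 3 reads, the limit that a count of 0 allows, correspond to 0.109 to 0.135 reads per 1000000 gene counts (CPM). Replicate 2 of leukemia 1 stood apart from the other leukemia libraries. Its 10 granulocyte marker genes summed to 15845 CPM, against 166 in replicate 1, 423 to 733 in leukemia 92 and 450 to 470 in pro-B cells, so results that rest on leukemia 1 are given for each replicate. All 13 pro-B marker genes were read in every library, apart from Dntt at 0 in leukemia 92 replicate 2. These 13 summed to 3820 and 5560 CPM in leukemia 1, 3822 and 4126 in leukemia 92, and 5574 and 4538 in pro-B cells. In the test described further on, Bst1, Dntt and Rag2 fell in leukemia and Cd79a rose. That is 3 and 1 of the 13, where 10.7% of genes fell and 9.54% rose. In leukemia 92 alone 6 fell and 1 rose, where 16.7% of genes fell and 14.7% rose. In leukemia 1 alone 4 fell and 2 rose, where 10.7% fell and 9.55% rose. In pro-B cells the 10 plasmacytoid dendritic cell markers summed to 3670 and 4097 CPM, against 423 to 549 in leukemia. The 10 T and NK cell markers summed to 470 and 443 against 4.79 to 54.0, with Ncr1 at 0 in 3 leukemia libraries. In the same test 7 and 4 of these fell in leukemia, where 10.7% of genes fell, and 3 and 6 did not pass. Cox6a2, a plasmacytoid marker, stood at 33.5 to 93.4 CPM in leukemia against 36.7 and 47.7. Cd3e, a T cell marker, was at 3.79 in leukemia 1 replicate 2 against 2.88 and 2.04. The 9 mature B cell markers summed to 414 and 354 CPM in leukemia 1 and to 1309 and 1241 in leukemia 92. Pro-B cells had 538 and 569. In leukemia 1 these markers went both ways in the same test: Cr2 and Fcrl1 rose, and Cd22 and Cd72 fell. That is 2 and 2 of the 9, where 9.55% of genes rose and 10.7% fell. In leukemia 92, 7 rose and 0 fell, where 14.7% of genes rose and 16.7% fell. The part of all these markers in the V segment results was not tested. In bulk RNA, fewer cells of a type and less RNA per cell cannot be told apart.

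V segment reads were lower in all 4 leukemia libraries than in both pro-B libraries, for the heavy and for the light chain. Heavy chain segments had 381 and 500 reads in leukemia 1, 253 and 247 in leukemia 92, and 2318 and 3652 in pro-B cells. In CPM these are 14.7 and 18.2, 9.97 and 11.1, and 92.6 and 152. The groups did not overlap, and the mean of the pro-B libraries was 6.71 to 12.3 times the single leukemia libraries.

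Light chain segments had 102 and 4254 reads in leukemia 1, 562 and 462 in leukemia 92, and 7768 and 11638 in pro-B cells. The corresponding levels were 3.94 and 155, 22.1 and 20.9, and 310.3 and 484 CPM. The pro-B mean was 101 times leukemia 1 replicate 1, 17.9 and 19.1 times the leukemia 92 libraries, and 2.56 times leukemia 1 replicate 2. The replicates of leukemia 1 thus had similar heavy chain totals, while their light chain totals lay far apart.

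Kappa segments made up most light chain reads, with 3.78 and 129 CPM in leukemia 1, 20.8 and 19.2 in leukemia 92, and 268 and 433 in pro-B cells. The 3 lambda segments had 4 and 708 reads in leukemia 1, 35 and 37 in leukemia 92, and 1052 and 1240 in pro-B cells. Which lambda segment led also differed. Iglv1 held 68.8% and 65.6% of the lambda reads of pro-B cells and 90.7% in leukemia 1 replicate 2, while Iglv3 held 74.3% and 91.9% in leukemia 92 and 3 of the 4 reads in leukemia 1 replicate 1. With 2 samples a group, the smallest two-sided p of an exact permutation test is 0.333, so totals, shares and effective numbers are given as descriptions with no test.

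**Figure D1:**
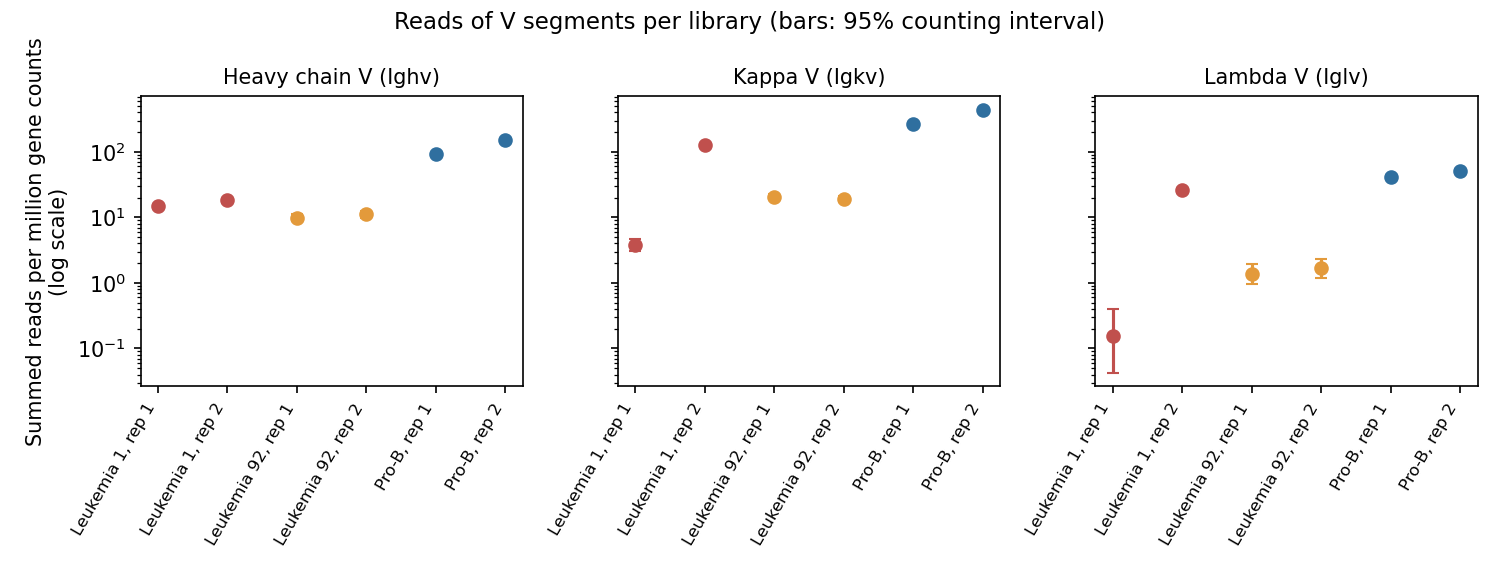
Summed reads of heavy chain, kappa and lambda V segments in CPM (log axis) in each of the 6 libraries; bars are exact 95% intervals for counting error alone. Every leukemia library lies below both pro-B libraries in each panel, and leukemia 1 replicate 2 lies far above the other leukemia libraries for kappa (129 CPM) and lambda (25.8 CPM).

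In the heavy chain, few segments carried most reads of 3 of the 4 leukemia libraries. Ighv1-5 held 178 of the 381 reads of leukemia 1 replicate 1, or 46.7% (exact Clopper-Pearson 95% interval 41.6 to 51.9, counting error only). In replicate 2 of that leukemia it held 33 of 500 reads, 6.60%, and Ighv1-54 led with 12.8%. The leading segment was therefore not shared by the 2 libraries of leukemia 1.

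Leukemia 92 gave nearly the same order in both libraries. Ighv1-54 led with 33.2% (27.4 to 39.4) and 33.6% (27.7 to 39.9), followed by Ighv1-5 with 17.4% and 21.5% and Ighv8-12 with 15.4% and 16.2%. The shares of the leader differed by less than their counting intervals.

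Both pro-B libraries had Ighv9-3 and Ighv1-9 among their 3 leading segments. Ighv9-3 led replicate 1 with 13.7% and held 10.7% of replicate 2. Ighv1-18 led replicate 2 with 24.5% (23.1 to 25.9) and held 5.39% (4.51 to 6.39) of replicate 1, a difference beyond counting error between libraries with the same label.

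Neither Ighv1-54 (edgeR adjusted p = 0.60) nor Ighv1-5 (0.48) passed the test of leukemia against pro-B cells described further on. Ighv1-54 stood at 2.78 and 2.33 CPM in leukemia 1, 3.31 and 3.75 in leukemia 92, and 4.075 and 4.204 in pro-B cells. Ighv1-5 stood at 6.87 and 1.20, 1.73 and 2.39, and 4.24 and 4.91 CPM. Leukemia 1 replicate 1 alone was above the pro-B libraries for Ighv1-5, and none was for Ighv1-54. The 33 heavy segments other than Ighv1-5, Ighv1-54, Ighv8-11 and Ighv8-12 summed to 2.55 and 11.4 CPM in leukemia 1, 2.36 and 2.39 in leukemia 92, and 75.7 and 133 in pro-B cells. Those 4 segments, a set chosen after their values were seen, summed to 12.2 and 6.85, 7.60 and 8.76, and 16.9 and 18.9 CPM, so they too were lower in each leukemia library. They held 37.6% of the heavy reads in leukemia 1 replicate 2, 76.3% to 82.7% in the other leukemia libraries, and 18.2% and 12.4% in pro-B cells.

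**Figure D2:**
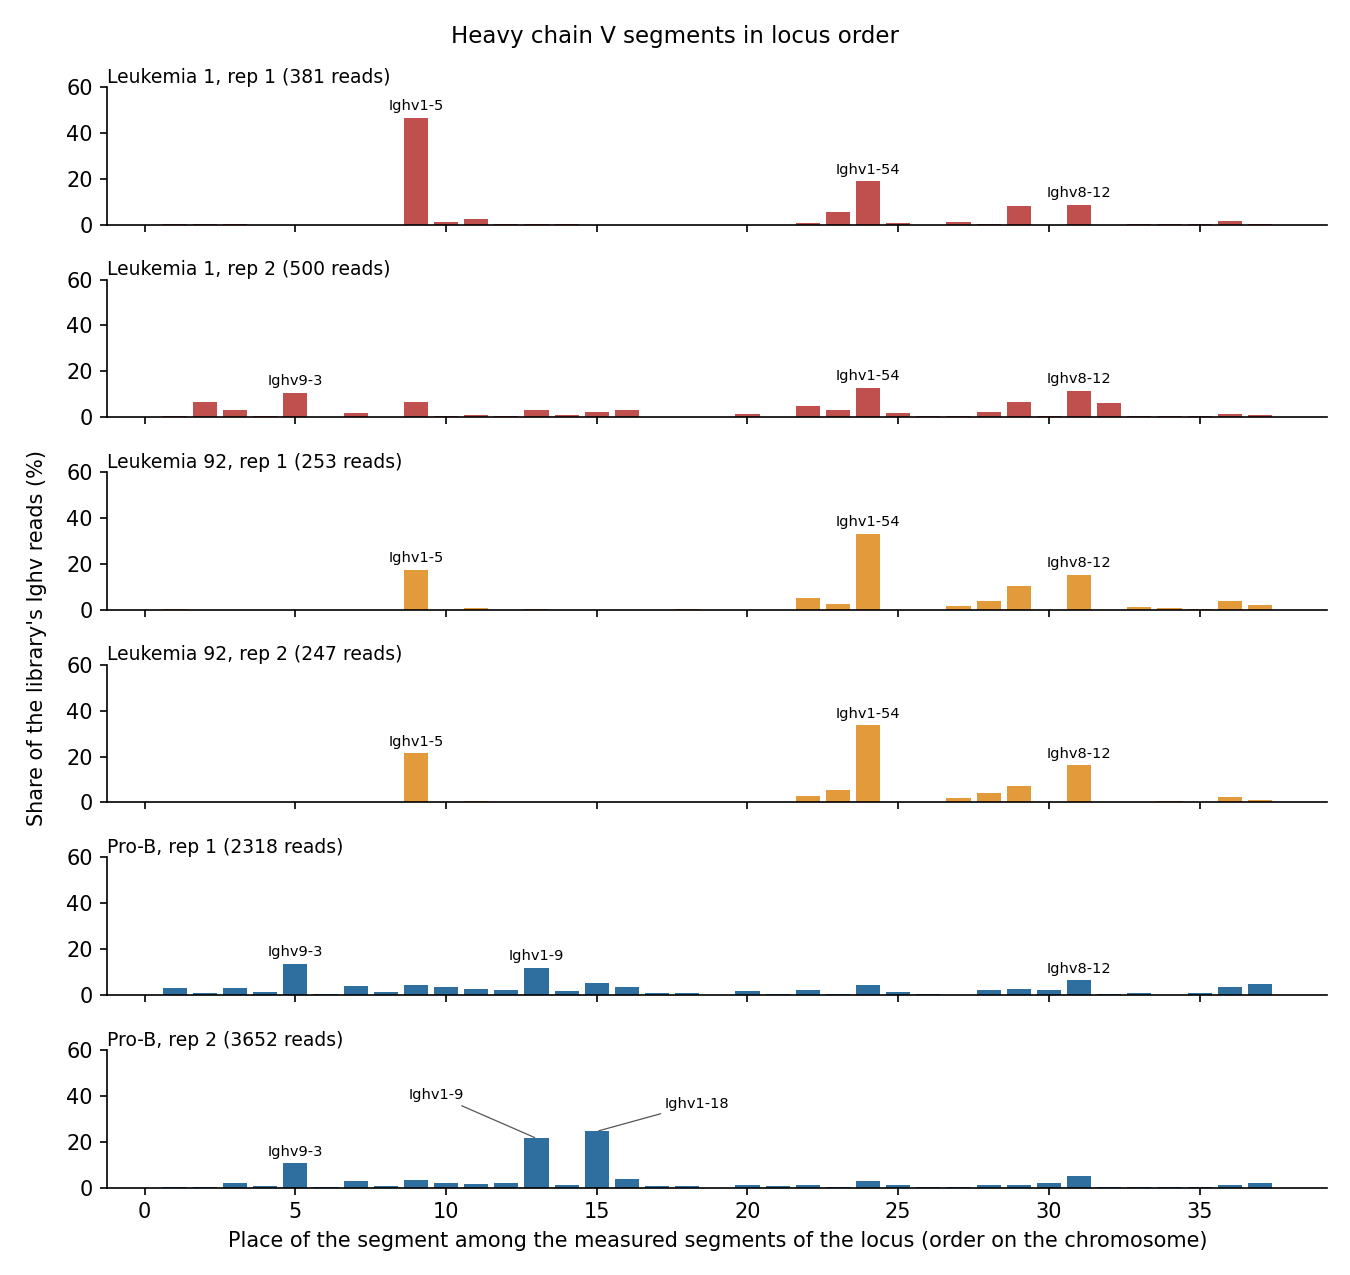
Share of each library's Ighv reads (%, vertical axis) held by each of the 37 measured heavy chain segments in their order along chromosome 12 (horizontal axis), 1 panel per library with its number of Ighv reads; the 3 leading segments are named. Ighv1-5 and Ighv1-54 stand out in leukemia 1 replicate 1 and in both leukemia 92 libraries, and Ighv1-18 leads pro-B replicate 2 with 24.5%.

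In the light chain, leukemia 92 was led by Igkv4-90 in both libraries. It had 249 and 191 reads there, 17 and 14 in leukemia 1, and 4 and 11 in pro-B cells. Its share of light chain reads in leukemia 92 was 44.3% (40.1 to 48.5) and 41.3% (36.8 to 46.0). Igkv12-89 came next with 18.1% and 17.7%. The leader and the segment in the second place were thus the same in both libraries.

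Leukemia 1 had no such shared leader. In replicate 1, with 102 light chain reads, Igkv12-89 held 17.6% (10.8 to 26.4), Igkv4-90 16.7% and Igkv9-124 14.7%, and the intervals of the 3 overlapped. Replicate 2, with 4254 reads, was led by Iglv1 with 15.1%, Igkv6-23 with 13.4% and Igkv14-111 with 7.71%. Igkv6-23 had 0 reads in replicate 1 and 572 in replicate 2, and Igkv12-89 held 0.517% of the light chain reads of replicate 2.

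The leaders of the light chain reads differed between the 2 pro-B libraries. Igkv5-48 had 1001 and 277 reads, Igkv8-30 801 and 116, Igkv6-32 352 and 1756, and Igkv8-27 358 and 1307. Iglv1 was close, at 28.9 and 33.9 CPM. Among V segments with at least 20 reads in both pro-B libraries, the median absolute log2 ratio between the libraries was 0.56 (72 segments), against 0.10 over all 12605 such genes. It was 0.27 for 24 heavy and 0.75 for 48 light segments, and 20 of the 72 segments differed by more than 2-fold, 27.8% against 0.674% of all genes. In leukemia 92 the median was 0.36 over 9 segments, of which 0 differed by more than 2-fold, against 0.10 and 0.662% over 11941 genes. Apart from the limit of 20 reads, V segments and all genes were not matched for read number. Their counting error may therefore differ, and its part in these ratios was not tested.

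The kappa reads of leukemia 92 came mostly from adjoining segments. Along the locus, 9 measured segments from Igkv10-95 to Igkv4-86 lie at places 51 to 61 of the 160 kappa segments of GENCODE, a stretch chosen after its values were seen. They held 81.8% (78.2 to 85.0) and 84.0% (80.2 to 87.4) of the kappa reads of leukemia 92 and 66.3% (56.1 to 75.6) in leukemia 1 replicate 1. The share was 5.05% (4.35 to 5.82) in leukemia 1 replicate 2, and 9.78% and 7.28% in the pro-B libraries. Outside this stretch, 91 measured kappa segments summed to 1.27 CPM in leukemia 1 replicate 1 and 3.78 and 3.07 in leukemia 92, against 123 in leukemia 1 replicate 2 and 242 and 401 in pro-B cells. Of these 91, 9 had a read in leukemia 1 replicate 1, 10 and 12 in leukemia 92, 66 in leukemia 1 replicate 2, and 82 and 83 in pro-B cells. Inside the stretch the sums were closer, at 2.51 and 6.52 CPM in leukemia 1, 17.0 and 16.1 in leukemia 92, and 26.2 and 31.5 in pro-B cells. Igkv9-124, a kappa segment outside it, was the other one with a clear share, at 14.7% of light chain reads in leukemia 1 replicate 1 and 8.90% in leukemia 92 replicate 1.

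**Figure D3:**
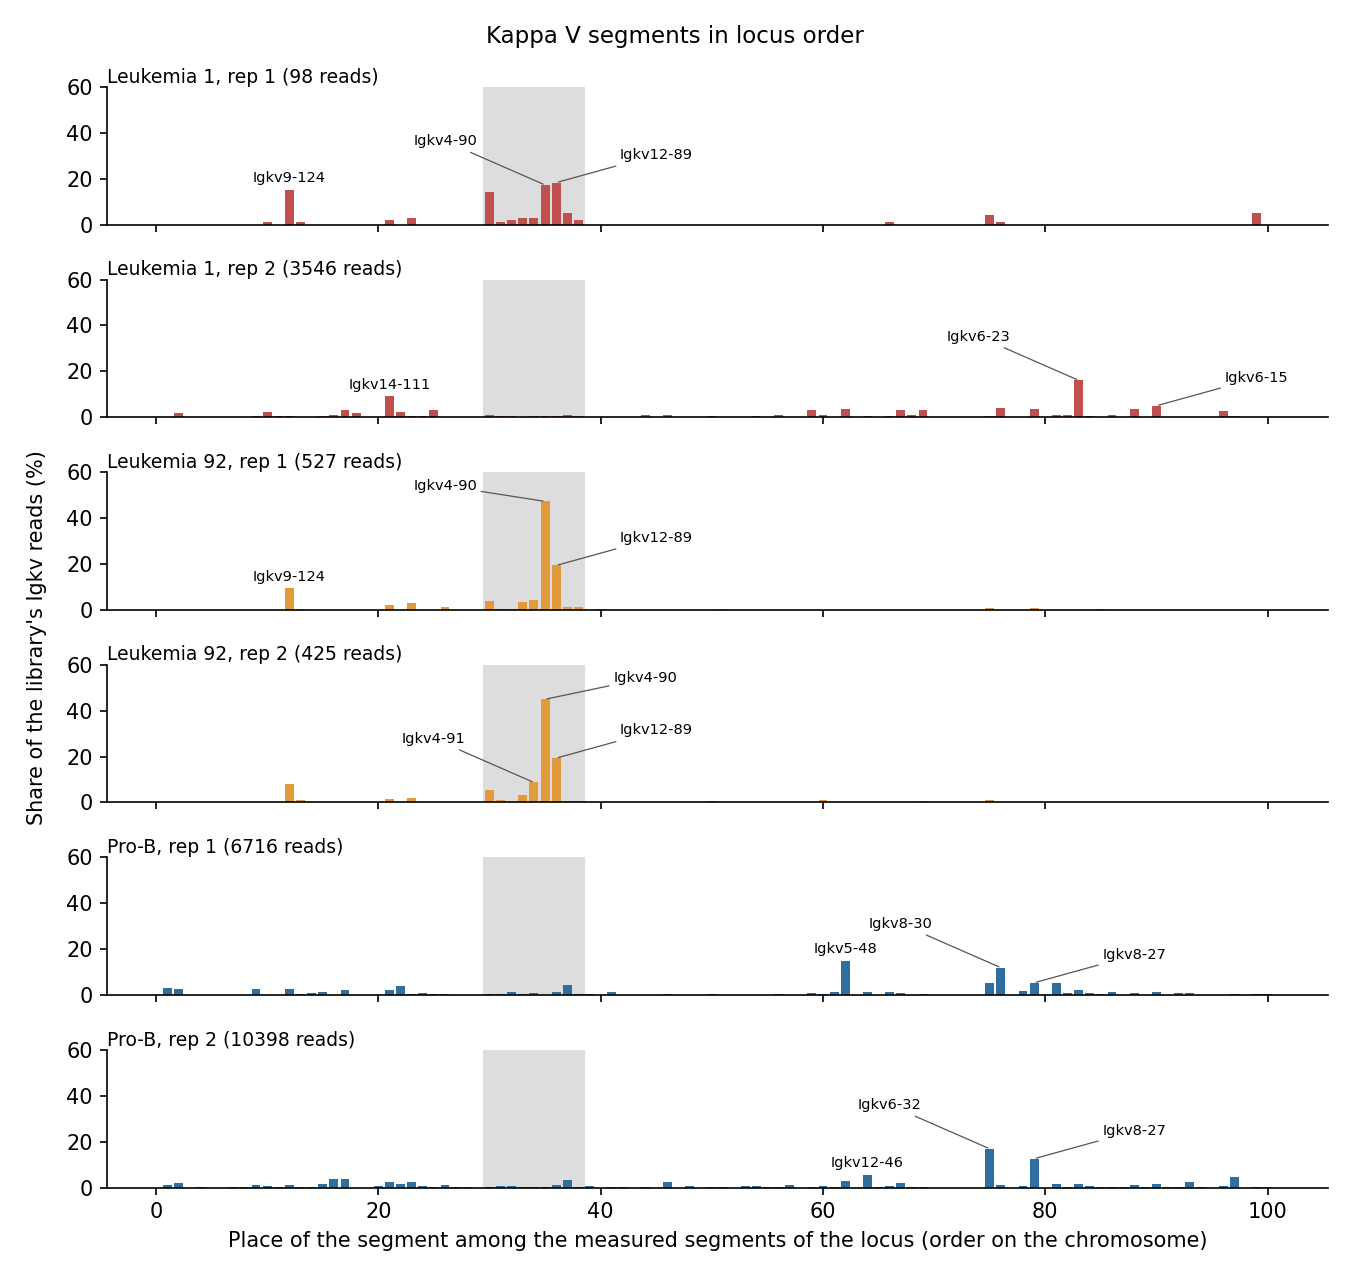
Share of each library's Igkv reads (%, vertical axis) held by each of the 100 measured kappa segments in their order along chromosome 6 (horizontal axis), 1 panel per library with its number of Igkv reads; the 3 leading segments are named and grey marks the 9 segments from Igkv10-95 to Igkv4-86. The grey stretch holds 66.3% to 84.0% of the reads in leukemia 1 replicate 1 and leukemia 92, and 5.05% to 9.78% in the other 3 libraries.

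The effective number of segments, the inverse of the sum of squared read shares (inverse Simpson), is the number of equally used segments that would give the same evenness. For the heavy chain it was 3.66 and 14.6 in leukemia 1, 5.49 and 5.07 in leukemia 92, and 17.2 and 7.85 in pro-B cells. For the light chain it was 9.02 and 16.8, 4.07 and 4.46, and 19.6 and 18.6. Leukemia 92 lay below both pro-B libraries for both chains, and so did leukemia 1 replicate 1 for the heavy and the light chain. Heavy chain evenness in leukemia 1 replicate 2 lay between the 2 pro-B libraries, and its light chain value was the closest of the leukemia libraries to pro-B cells. For kappa alone it was the highest of all, at 18.96 against 18.2 and 16.6 in pro-B cells, 8.395 in leukemia 1 replicate 1, and 3.62 and 3.87 in leukemia 92. Pro-B replicate 2, led by Ighv1-18 and Ighv1-9, was closer in heavy chain evenness to leukemia 92 (7.85 against 5.49 and 5.07) than to pro-B replicate 1 (17.2).

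The number of segments with at least 1 read did not follow evenness throughout. Of 37 heavy segments, 22 and 33 had a read in leukemia 1, 17 and 17 in leukemia 92, and 36 and 36 in pro-B cells. Of 103 light segments, 20 and 77 had one in leukemia 1, 21 and 23 in leukemia 92, and 94 and 95 in pro-B cells. Numbers of detected segments depend on the number of reads, which was lowest in these same libraries. Shares compare segments by reads and not per length. With reads divided by exon length, an alternative chosen after seeing the data, the leading light segment of leukemia 92 held 43.0% on average.

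**Figure D4:**
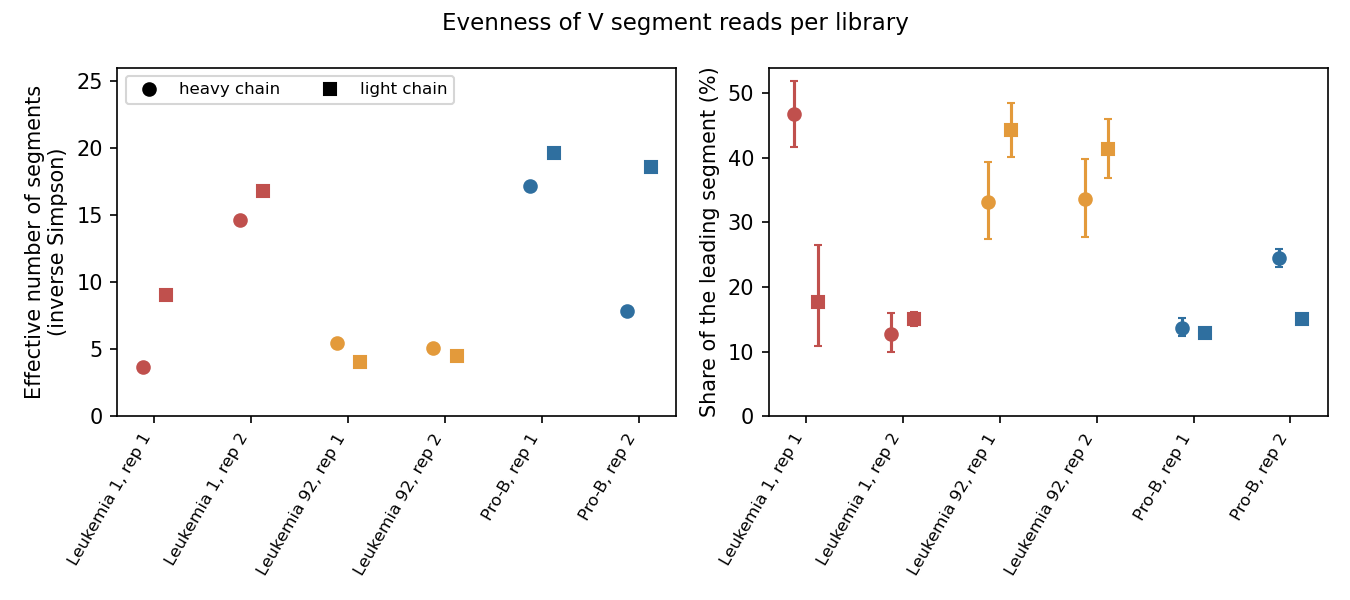
Left, effective number of V segments (inverse Simpson) in each library; right, share of reads held by the leading segment (%) with exact 95% intervals for counting error; circles are heavy and squares light chain segments. Both leukemia 92 libraries sit between 4.07 and 5.49 effective segments, and the 2 replicates of leukemia 1 lie far apart.

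Each segment was then tested with edgeR's quasi-likelihood test over all genes, with Benjamini-Hochberg adjustment and a threshold of 0.05. Segments with few reads were filtered out, and most of those that passed did so through the pro-B libraries where they are high, so the number that fell and the median change are partly set by the filter. For leukemia against pro-B cells, with the reads of the 2 libraries of a leukemia summed, 101 of 140 V segments were tested and 39 were not. Of these, 26 fell, 0 rose and 75 did not pass. Over all 15280 genes tested, 10.7% fell and 9.54% rose, 20.2% in either direction. DESeq2 gave 1 V segment higher and more of them lower than edgeR, with the counts given further on. An unadjusted edgeR p under 0.05 was found for 53 V segments. Here and below, the share of all genes at that p is not given, so such counts cannot be read as particular to V segments. The heavy chain had 18 of 33 tested segments lower and the light chain 8 of 68. The median log2 change of the tested V segments was -3.60, against 0.02 for all genes.

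Heavy segments among the largest falls had few or no leukemia reads. Ighv12-3 had 32 and 27 reads in pro-B cells and 0 in all 4 leukemia libraries, so it was at least 40.4-fold higher in pro-B cells (floor of 3 reads over the 4 libraries; edgeR adjusted p = 0.019). Ighv3-3, with 11 and 13 reads against 0, was at least 16.5-fold higher (edgeR adjusted p = 0.028). Ighv1-9, the segment in the second place in both pro-B libraries, had 2, 16, 1 and 0 reads in the leukemia libraries against 275 and 783 (log2 change -6.74, SE 1.31, edgeR adjusted p = 0.041). Each leukemia library lay below both pro-B libraries for these 3 segments.

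Other named heavy segments went the same way, with ratios that rest on 1 to 3 leukemia reads. The 126 pro-B reads of Ighv1-67 against 3 gave a ratio of 86.4 (95% counting interval 28.9 to 424). Ighv1-20 and Ighv1-23, with 42 and 40 pro-B reads against 1 each, gave 86.4 (14.7 to 3492) and 82.3 (13.9 to 3329). All 3 passed the test (edgeR adjusted p = 0.015, 0.021 and 0.024). Ighv8-12, which kept reads in every library, stood at 1.27 and 2.11 CPM in leukemia 1, 1.54 and 1.81 in leukemia 92, and 5.99 and 7.78 in pro-B cells. Its log2 change was -1.87 with an SE of 0.33 (adjusted p = 0.033 by edgeR), and no leukemia library overlapped the pro-B libraries.

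Among light segments, Igkv6-32 had 4, 22, 4 and 4 reads in leukemia against 352 and 1756 in pro-B cells (log2 change -6.88, SE 1.20, edgeR adjusted p = 0.034). Igkv8-28 had 0, 3, 0 and 0 against 116 and 67, a ratio of 125 (95% counting interval 42.3 to 614, edgeR adjusted p = 0.028). The pro-B leaders Igkv5-48 (log2 change -4.29, edgeR adjusted p = 0.20) and Igkv8-30 (log2 change -3.57, edgeR adjusted p = 0.30) did not pass. Leukemia 1 replicate 2 held 128 and 150 of their reads, and the other 3 leukemia libraries 0 or 1. Counted without a test, 91 of the 140 segments had all 4 leukemia libraries below both pro-B libraries, 65.0% against 18.2% of all 33924 genes, and without leukemia 1 replicate 2 the number was 120, or 85.7% against 22.1%. Igkv4-90 was the 1 segment with all 4 above, 0.714% against 9.05% of all genes. These shares are not matched for read number. A gene without pro-B reads cannot have lower leukemia libraries. Of the 33924 genes 15280 passed the read filter of the test, and of the 140 V segments 101 did, so the shares over all genes are lowered by unread genes.

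Leaving out a library changed these counts. Here and below, counts from fits with a library left out or with another tool or model come without the share over all genes. A change in such a count need not be particular to V segments. Without either pro-B library, 0 segments were lower in leukemia. Without leukemia 1 replicate 2 the count was 61, and without replicate 1 it was 13. A fit of the 6 single libraries gave 45 lower and 1 higher.

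The leukemias were also compared with pro-B cells each on its own, in 1 fit with the same pro-B libraries. For leukemia 92, 98 segments were tested, 36 fell, 1 rose and 61 did not pass, where 16.7% of 14979 genes fell and 14.7% rose (31.4% in either direction). Of the 98, 54 had no read in leukemia 92 and passed the filter through other libraries. By chain, 23 of 33 heavy and 13 of 65 light segments fell. Without leukemia 92 replicate 1 or 2 the number that fell was 0 or 2, without pro-B replicate 1 or 2 it was 1 or 0, and without leukemia 1 replicate 1 or 2 it was 82 or 84.

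Igkv4-90 was the segment that rose in leukemia 92. It stood at 9.81 and 8.62 CPM there, against 0.160 and 0.458 in pro-B cells and 0.656 and 0.510 in leukemia 1. The log2 change against pro-B cells was 5.04 (SE 0.59, edgeR adjusted p = 0.0060), and both leukemia 92 libraries lay above the other 4. It kept its direction with each library left out, with adjusted p from 2.1e-06 to 0.063, and missed the threshold without leukemia 92 replicate 1 (adjusted p = 0.063), leukemia 92 replicate 2 (0.058) or pro-B replicate 1 (0.052). Its neighbour Igkv12-89 stood at 4.02 and 3.70 CPM in leukemia 92, 3.60 and 4.16 in pro-B cells and 0.695 and 0.802 in leukemia 1, so leukemia 92 lay within the pro-B range (log2 change 0.15, edgeR adjusted p = 0.73).

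Segments prominent in pro-B cells and unread in leukemia 92 give lower bounds. Ighv1-18 was at least 329-fold higher in pro-B cells (edgeR adjusted p = 0.046), but 894 of its 1019 pro-B reads came from replicate 2. From pro-B replicate 1 alone the bound was 79.1-fold, an alternative chosen after seeing the data. Further bounds with edgeR adjusted p in brackets were 109-fold for Igkv2-137 (0.040), 64.9-fold for Ighv3-8 (0.040), 59.1-fold for Igkv8-28 (0.020), 54.9-fold for Igkv12-44 (0.046), 49.7-fold for Ighv10-3 (0.0060) and 43.0-fold for Ighv14-3 (0.036), each a lower bound from a floor of 3 reads over the 2 libraries. For Ighv1-9, 1 read in leukemia 92 against 1058 gave a ratio of 1025 (95% counting interval 184 to 40530), and 522 from pro-B replicate 1 alone. In all, 15 of the 35 heavy segments and 56 of the 82 light segments with at least 10 pro-B reads had no read in leukemia 92. These segments were picked by their pro-B reads. The share over all genes is not given here, so the numbers cannot be read as particular to V segments.

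For leukemia 1, 98 segments were tested, 23 fell, 0 rose and 75 did not pass, where 10.7% of the genes fell and 9.55% rose (20.3% in either direction). The median log2 change was -2.92, against 0.05 for all genes, and 39 segments had an unadjusted p under 0.05. DESeq2 also called 0 higher. The falls included Ighv12-3 (at least 21.4-fold), Ighv1-23 (at least 14.5-fold) and Ighv3-3 (at least 8.70-fold), each with 0 reads in both libraries of leukemia 1. Igkv6-20 had 1 read against 58, a ratio of 63.1 (95% counting interval 10.9 to 2534). Igkv12-89 fell (log2 change -2.22, SE 0.31, edgeR adjusted p = 0.013) and Igkv9-124, at 0.579 and 0.619 CPM against 7.23 and 4.25, fell too (log2 change -3.10, SE 0.42, edgeR adjusted p = 0.013). Both replicates lay below both pro-B libraries for these 2 segments.

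The replicates of leukemia 1 weigh on that count. For the fits without a library the share over all genes is not given, so a change in count need not be particular to V segments. Without replicate 2, 80 segments fell and 1 rose. Without replicate 1, 49 fell and 4 rose. Without either leukemia 92 library, 1 fell, and without either pro-B library 0 did.

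Leukemia 92 against leukemia 1 gave 2 segments higher and 0 lower of 98 tested, with 12 at an unadjusted p under 0.05, where 1.82% of the genes were higher and 1.27% lower (3.09% in either direction). DESeq2 gave 4 and 13. The 2 were the neighbours Igkv4-90 (log2 difference 3.98, SE 0.55, edgeR adjusted p = 0.043) and Igkv12-89 (log2 difference 2.37, SE 0.31, edgeR adjusted p = 0.038). In both cases each leukemia 92 library lay above each leukemia 1 library. Neither passed when a leukemia 92 or a pro-B library was left out, with edgeR adjusted p from 0.18 to 0.42, or with the replicate number as a block (0.12). Without leukemia 1 replicate 1 the counts were 5 higher and 42 lower, and without replicate 2 they were 7 and 4. For Ighv1-54 the log2 difference was 0.47 (SE 0.29, edgeR adjusted p = 0.36).

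**Figure D5:**
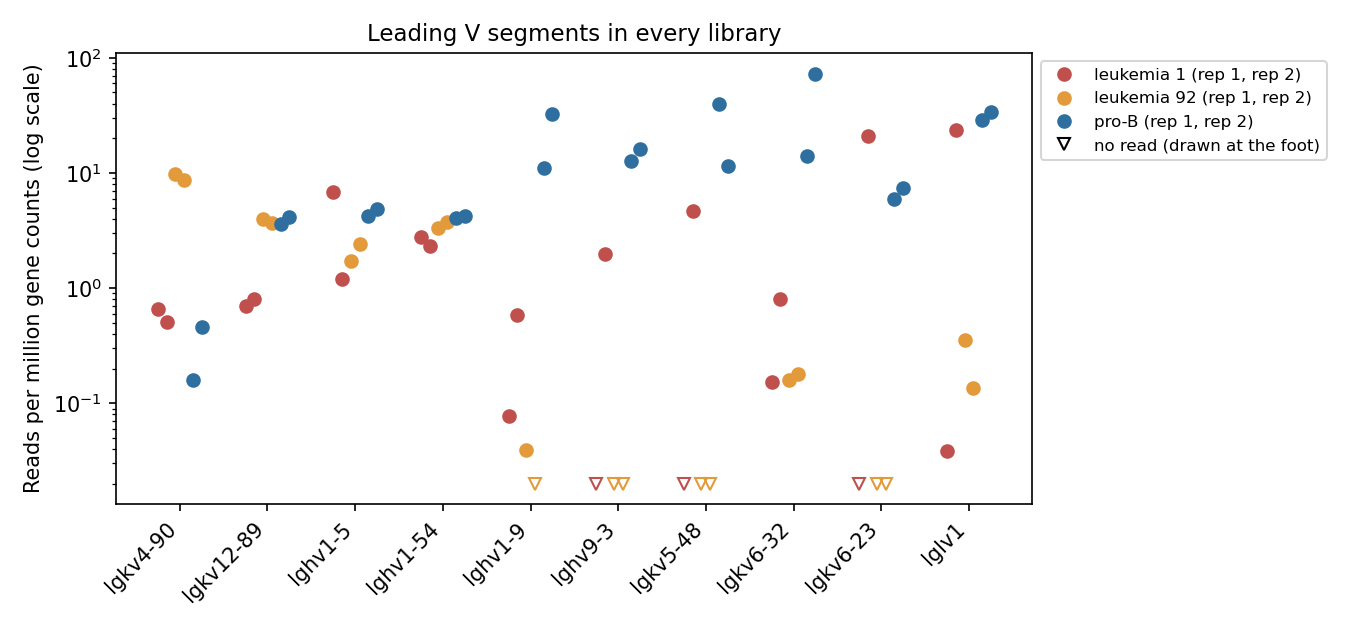
Level in CPM (log axis) of 10 V segments in every library; triangles at the foot mark a library with no read. Igkv4-90 is highest in both leukemia 92 libraries (9.81 and 8.62), Ighv1-54 is at 2.33 to 4.204 in all 6 libraries, and Igkv6-23 and Igkv5-48 have reads in 1 leukemia library, replicate 2 of leukemia 1.

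The other parts of the antibody genes were read from lists of constant, joining, receptor and recombinase genes. Of the 9 heavy chain constant genes listed, 3 were tested: 1 fell and 2 did not pass, where 10.7% of genes fell. Ighm, the mu constant gene, stood at 1679 and 3008 CPM in leukemia 1, 1644 and 1816 in leukemia 92, and 3513 and 3646 in pro-B cells (log2 change -0.66, SE 0.16, edgeR adjusted p = 0.066). Ighg1 fell (0.579 to 10.5 against 21.7 and 27.8 CPM, log2 change -2.43, SE 0.45, edgeR adjusted p = 0.037), and Ighg2c did not pass (edgeR adjusted p = 0.11). The table also holds a gene named Ighg, added to these after its values were seen, which went the other way. It stood at 144 and 104 CPM in leukemia 1, 314 and 388 in leukemia 92, and 60.2 and 91.1 in pro-B cells, and rose in leukemia 92 (log2 change 2.37, SE 0.31, edgeR adjusted p = 0.0076). Its test did not pass for leukemia 1 (edgeR adjusted p = 0.10) or for leukemia as a whole (0.11). Measured against Ighm, reads of the 37 heavy V segments were fewer in leukemia. There were 0.606 to 0.875 Ighv reads per 100 Ighm reads in the 4 libraries, against 2.64 and 4.17 in pro-B cells. A mu chain that used a V segment outside these 37 would count for Ighm alone.

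Light chain constant genes were read in every library. Igkc, the kappa constant gene, had 30 and 5212 reads in leukemia 1, 152 and 106 in leukemia 92, and 9281 and 12693 in pro-B cells (log2 change -2.996, SE 1.38, edgeR adjusted p = 0.20). Leukemia 1 replicate 2 was again far above the other leukemia libraries. There were 68.0 Igkv reads per 100 Igkc reads in that library and 72.4 and 81.9 in pro-B cells, but 327 in leukemia 1 replicate 1 and 347 and 401 in leukemia 92. Kappa V reads thus outnumbered kappa constant reads only in those 3 of the 6 libraries. Iglc3, a lambda constant gene, had 4.98 and 3.43 CPM in leukemia 1, 16.4 and 12.8 in leukemia 92, and 60.7 and 78.3 in pro-B cells. It fell in leukemia 92 (log2 change -2.09, edgeR adjusted p = 0.0085) and in leukemia 1 (-3.89, edgeR adjusted p = 0.0045). Iglc2 fell in leukemia 92 (-5.67, edgeR adjusted p = 0.048) and did not pass in leukemia 1 (0.22). For leukemia as a whole, 0 of the 3 light chain constant genes tested passed (edgeR adjusted p = 0.072 for Iglc3 and 0.11 for Iglc2). In leukemia 92, 2 of the 3 fell, where 16.7% of genes did. In leukemia 1, 1 fell, where 10.7% of genes did.

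All 5 joining segments tested, Igkj1 to Igkj5 of the kappa locus, fell in leukemia and in each leukemia alone, against the 10.7%, 16.7% and 10.7% of genes that fell. Each had 0 to 5 reads in every leukemia library and 59 to 87 in each pro-B library, so the groups did not overlap. Igkj1, for example, had 0, 5, 2 and 0 reads against 78 and 85 (log2 change -5.38, SE 0.53, edgeR adjusted p = 0.015). In leukemia 1 replicate 2, with its 3546 Igkv reads, Igkj segments had 2 to 5 reads each. Joining segments are much shorter than V segments, so the levels of the 2 kinds are not compared.

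Genes of the pre-B receptor, which pairs a heavy chain with the surrogate light chain, were read in every library, and 2 of 6 rose in leukemia while 4 did not pass, where 9.54% of genes rose. Cd79a, a signalling chain, stood at 942 to 1393 CPM in leukemia against 486 and 440 (log2 change 1.60, SE 0.16, edgeR adjusted p = 0.016). Vpreb3 was called too, with 668 to 1182 CPM against 368 and 333. The surrogate light chain genes Igll1 (380 to 786 against 842 and 686 CPM), Vpreb1 (424 to 867 against 452 and 363) and Vpreb2 (28.3 to 204 against 56.9 and 42.0) overlapped between the groups and did not pass, nor did Cd79b (377 to 896 against 375 and 360).

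Of 12 genes of the V(D)J recombinase and of DNA end joining, 6 fell and 6 did not pass, where 10.7% of genes fell, and in leukemia 92 alone 8 fell, where 16.7% did. Dntt, the terminal transferase that adds bases at the joints, had 6, 30, 1 and 0 reads in leukemia against 26188 and 15497. Rag1 had 1796 and 820 reads in leukemia 1, 271 and 222 in leukemia 92, and 9718 and 8188 in pro-B cells. It did not pass for leukemia as a whole (edgeR adjusted p = 0.056) but fell in leukemia 92 (0.0042) and in leukemia 1 (0.020). Rag2 fell (log2 change -3.39, SE 0.67, edgeR adjusted p = 0.042), as did Xrcc5, a subunit of the Ku end-binding complex (-4.32, SE 0.19, edgeR adjusted p = 0.0065), and Hmgb1 (-1.34, edgeR adjusted p = 0.013). Lig4, the ligase of end joining, fell in leukemia 92 (-3.29) and in leukemia 1 (-2.45). Rag2 was also lower in leukemia 92 than in leukemia 1 (log2 difference -1.84, SE 0.20, edgeR adjusted p = 0.030). Of 15 tested regulators of these loci, 3 fell and 12 did not pass, against 10.7% of genes that fell. Those that fell include Spib (-2.84, edgeR adjusted p = 0.012) and Ikzf3 (-1.85, edgeR adjusted p = 0.015). Each leukemia alone had 5 of the 15 lower and 1 higher, where 16.7% of genes fell and 14.7% rose in leukemia 92, and 10.7% fell and 9.55% rose in leukemia 1. In both, Il7r, the receptor chain for interleukin 7 (-1.63 in leukemia 92, -0.74 in leukemia 1), and Rad21, a cohesin subunit (-1.16, -0.58), fell. Stat5b rose in leukemia 92 (0.43) and Pax5 in leukemia 1 (0.49).

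Leukemia 1 replicate 2 differed from replicate 1 in other transcripts beside its light chain reads. Igj, the J chain that joins antibodies into polymers, had 2881 reads there, 7 in replicate 1, 14 and 6 in leukemia 92, and 3798 and 4438 in pro-B cells. Prdm1, a regulator of plasma cells, stood at 6.49 CPM there, 0.386 in replicate 1, 0.315 and 0.226 in leukemia 92, and 5.35 and 8.57 in pro-B cells. Sdc1 was at 11.8 CPM there, at 3.82 in replicate 1 and at 54.5 and 61.0 in pro-B cells. Over all 8 plasma cell markers of the table the sum was 883 and 593 CPM in leukemia 1, 248 and 250 in leukemia 92, and 684 and 775 in pro-B cells, with Tnfrsf17 at 0 in leukemia 1 replicate 1. Irf4 and Xbp1, at 634 and 238 CPM in replicate 1 and 210.5 and 220 in replicate 2, make up most of that sum. The other 6 markers were higher in replicate 2 than in replicate 1, among them Derl3 (35.0 against 5.94 CPM) and Fkbp11 (3.32 against 0.463). S100a8, a granulocyte gene, stood at 3560 CPM there and at 42.7 in replicate 1. The part of these transcripts in the V segment reads of leukemia 1 replicate 2 was not tested.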

How the data were processed

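RNA of 6 libraries (2 of leukemia 1, 2 of leukemia 92, 2 of wild-type pro-B cells) was counted per gene. The authors deposited raw read counts, whole numbers per gene symbol with no normalization. The submitters' processing notes name mm9 as the build and STAR 2.4, HTSeq 0.6.1 and DESeq2 as tools, without saying what each did. Which annotation was counted, and whether by strand, is not stated there, so positions are left out. The 5 entries that name no gene held 34.0% to 39.6% of all entries of a library (reads not uniquely aligned 23.6% to 27.3%) and were left out.

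Members were found by symbol, and all 140 matched a gene of GENCODE M21 (GRCm38), which gave locus order, exon lengths and germline sequences only. CPM are reads per 1000000 gene counts. Single segments were tested with edgeR 4.0.16 under R 4.3.3 (TMM factors, genes kept by filterByExpr at min.count 10, robust quasi-likelihood fit), tested first on simulated data, on counts summed per leukemia for leukemia against pro-B and on 6 libraries with 1 coefficient per group otherwise. An adjusted p under 0.05 was called. Named genes are the 3 segments with most reads in each library for heavy and light chain, the 8 largest called rises and falls among V segments in each comparison, constant and pre-B receptor genes, and up to 2 called members of each other list per direction with the smallest p. Further genes in the text were chosen after their values were seen. Intervals and floors of 3 counts cover counting error only. The members and lists were chosen with earlier results of these data known. Alternatives were DESeq2 1.42.0, other size factors, no filter, immunoglobulin rows left out of library sizes, a replicate block, other evenness measures and each library left out.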

Additional observations from a re-analysis of the deposited data

Results flagged for a closer look

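Within the 4 leukemia libraries, 35 values were examined for a library far from the rest, and 19 stood out, 17 single segments and 2 summaries. Chance flags about 1 in 20 groups of values, a rate that does not apply here, because segments were named for leading a library (Iglv1, Igkv6-23 and Igkv14-111 lead leukemia 1 replicate 2) or for the largest falls. All but Ighv1-23 (0.0394 CPM in leukemia 92 replicate 1, from 1 read) concern leukemia 1 replicate 2. That library had a heavy chain effective number of 14.6 and a light chain total of 155 CPM. Its heavy segments far from the others were Ighv9-3 at 1.97 CPM, Ighv1-9 and Ighv14-3 at 0.583 each, Ighv1-18 at 0.401, Ighv3-8 at 0.364 and Ighv1-20 at 0.0364, the last from 1 read. The light segments were Iglv1 at 23.4 CPM, Igkv6-23 at 20.8, Igkv14-111 at 11.95, Igkv8-30 at 5.47, Igkv8-27 at 4.77, Igkv5-48 at 4.66, Igkv12-44 at 0.874, Igkv6-32 at 0.802, Igkv2-137 at 0.474 and Igkv8-28 at 0.109. These values come from 1 library and are not independent of each other.

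The changes of Igkv4-90 and Igkv12-89 against pro-B cells differed between the leukemias, by 3.98 and 2.37 on the log2 scale, in the direct test of leukemia 92 against leukemia 1.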

How the results depend on the processing

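Of 44 values for named segments, 0 reversed in direction under the alternatives run for each, and other called segments were not followed. The share over all genes is not given for the counts below, so their changes need not be particular to V segments. With DESeq2, leukemia against pro-B had 46 V segments lower and 1 higher, leukemia 92 had 69 lower, and leukemia 92 against leukemia 1 had 4 higher and 13 lower. The fit of 6 libraries in 3 groups gave 45 lower and 1 higher for leukemia against pro-B. Replicate numbers did not pair the samples: the replicate differences of the groups correlated at -0.15, 0.02 and -0.04 over 10857 genes. With the replicate block, 1 segment was higher in leukemia, 12 were lower in leukemia 1, and 0 were higher in leukemia 92 than in leukemia 1. Of the 44 values, 44 stayed called with other size factors, with no filter and with immunoglobulin rows left out of library sizes, 38 with DESeq2 and 24 with the block.

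With each library left out in turn, segments lower ranged from 0 to 61 for leukemia, 0 to 84 for leukemia 92 and 0 to 80 for leukemia 1, and segments higher from 0 to 0, 0 to 1 and 0 to 4. Leukemia 92 against leukemia 1 ranged from 0 to 7 higher and 0 to 42 lower. With 1 library left in a group, it is assumed to vary like the other groups.

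For totals, leading shares and effective numbers these ranges are the values of the single libraries. For leukemia 1, heavy totals were 14.7 to 18.2 CPM, shares 12.8% to 46.7% and effective numbers 3.66 to 14.6, and for light segments 3.94 to 155 CPM, 15.1% to 17.6% and 9.02 to 16.8. For leukemia 92 the heavy values were 9.97 to 11.1 CPM, 33.2% to 33.6% and 5.07 to 5.49, and the light values 20.9 to 22.1 CPM, 41.3% to 44.3% and 4.07 to 4.46. For pro-B cells they were 92.6 to 152 CPM, 13.7% to 24.5% and 7.85 to 17.2 (heavy), and 310.3 to 484 CPM, 12.9% to 15.1% and 18.6 to 19.6 (light).

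The Shannon effective number weights rare segments more: 7.54 for heavy segments of leukemia 92, and 21.6, 7.26 and 34.2 for light segments of leukemia 1 (12.2 and 30.9 in its replicates), leukemia 92 and pro-B cells. The heavy chain values were 6.07 and 19.5 in leukemia 1 and 23.5 and 14.1 in pro-B cells. Per exon length, the leading heavy share of leukemia 92 was 32.8%. Light chain shares of leukemia 1 replicate 1 rest on 102 reads.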

Other observations

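Families of V segments were summed as a description. Ighv1, the family with 21 of the 37 heavy segments, held 73.0% and 48.0% of the heavy reads in leukemia 1, 63.6% and 64.8% in leukemia 92, and 54.9% and 70.1% in pro-B cells, so the groups overlapped.

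Of V segments read more in leukemia 1 replicate 2 than in any other library, 2 were chosen after their values were seen. Igkv2-116, a pseudogene in GENCODE, had 72 reads there, 0 in the other 3 leukemia libraries, and 3 and 1 in pro-B cells. It shared 21.4% of its stretches of 50 bases with the transcript of another V segment. Ighv11-2, the 1 measured member of its family, had 33 reads there, 1 in replicate 1, 0 and 1 in leukemia 92, and 16 and 12 in pro-B cells.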
